A study of Mus musculus with 4 samples.

Results

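The genes followed here are 8 well-known targets of the antioxidant response element (ARE), a short DNA sequence bound by the transcription factors Nrf1 (gene Nfe2l1) and Nrf2 (gene Nfe2l2). They are Hmox1, Nqo1, Gclc, Gclm, Slc7a11, Txnrd1, Srxn1 and Sqstm1, chosen by name from 22574 genes counted, and all 8 were measured. Single-nucleus RNA sequencing (snRNA-seq) had been run on 8585 cardiomyocyte nuclei from neonatal mouse hearts in 4 libraries, to ask how cardiomyocytes respond to injury when Nrf1 is deleted. Control mice (WT in the library names) carried floxed Nrf1 alleles without Cre, and knockout mice (KO) carried the same alleles with a Cre transgene under the cardiomyocyte promoter alpha myosin heavy chain. All mice shared a C57BL/6 background and had surgery at postnatal day 3, either a ligature around the left anterior descending artery of the heart (myocardial infarction, MI) or the same opening of the chest without ligation (Sham). Hearts were collected at postnatal day 4, that is 1 day later, and the tissue below the ligature was pooled from 4 to 6 hearts of 1 genotype for each library.

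In cells at rest the inhibitor KEAP1 sends NRF2 for degradation, and the repressor BACH1 occupies AREs. When electrophiles, oxidants or heme accumulate, NRF2 or processed NRF1 pairs with a small MAF protein on the ARE and switches on enzymes that break down heme, reduce quinones, make glutathione and repair oxidized thiols. In heart muscle, which has a dense mitochondrial network, this program is known for limiting oxidative damage after ischemia.

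With 1 library for each genotype and surgery, no difference could be checked against replicates and no test was made. The unit is the unique molecular identifier (UMI), a count of captured RNA molecules, and levels are UMIs per 1000000 of all UMIs summed in a library or population (CPM). Each level or log2 ratio stands with an exact 95% interval that covers counting error only, and fewer molecules per nucleus cannot be told apart from fewer nuclei that express a gene. Libraries held 1406 to 3328 nuclei and 4984625 to 9106522 UMIs. KO-Sham stood apart, with a median of 2572 UMIs per nucleus against 3553.5 to 3959 elsewhere and a median of 8.98% mitochondrial UMIs against 5.29% to 6.58%. The cardiomyocyte gene Tnnt2 was detected in 99.9% to 100% of nuclei of each library, and 9 barcodes occurred in more than 1 library. Between genotypes the targeted gene went against its label after MI: the log2 ratio of Nfe2l1 for KO over WT was 0.22 (0.02 to 0.43) with MI labels and -0.30 (-0.51 to -0.09) with Sham labels. Relative to the median gene of each comparison these were 0.19 (-0.01 to 0.40) and -0.21 (-0.42 to 0.007), with intervals that include 0. Genotypes are therefore named as the libraries are labelled, and the sources used here do not give which part of the gene was deleted. The study also compared Nrf1 by quantitative PCR between knockout and control hearts at a later age and reported a significant difference.

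Promoters were examined for the core of the ARE, searched on both strands as TGACNNNGC or TGAGNNNGC, in windows from 250 bases before to 50 bases after each RefSeq start (assembly GRCm38.p6, the build of the counts). The second form can overlap the AP-1 motif TGAGTCA. RefSeq promoter entries matched 6 of the 8 members, Hmox1 and Gclc being the others, and gave 8 windows. The core occurred in 4 of these 8 windows, each of a different member, against 27.8% of all 32851 windows. The 250 bases before the start are shown for these 4, 5′ to 3′ on the strand of the gene, because the genes with the largest ratios after MI that have an entry are among them. Capitals mark the match, which reads as the core on the strand shown or on its complement.
Srxn1, chr2:152105274-152105523, plus strand: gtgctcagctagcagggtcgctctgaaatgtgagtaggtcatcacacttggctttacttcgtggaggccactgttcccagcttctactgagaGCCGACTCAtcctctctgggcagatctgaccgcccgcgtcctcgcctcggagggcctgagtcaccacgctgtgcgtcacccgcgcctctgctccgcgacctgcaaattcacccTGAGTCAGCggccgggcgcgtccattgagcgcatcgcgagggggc
Slc7a11, chr3:50443614-50443863, minus strand: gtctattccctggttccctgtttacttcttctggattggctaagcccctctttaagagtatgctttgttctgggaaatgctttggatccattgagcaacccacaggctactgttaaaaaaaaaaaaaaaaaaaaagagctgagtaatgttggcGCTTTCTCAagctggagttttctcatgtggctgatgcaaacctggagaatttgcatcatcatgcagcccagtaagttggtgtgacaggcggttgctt
Gclm, chr3:122245307-122245556, plus strand: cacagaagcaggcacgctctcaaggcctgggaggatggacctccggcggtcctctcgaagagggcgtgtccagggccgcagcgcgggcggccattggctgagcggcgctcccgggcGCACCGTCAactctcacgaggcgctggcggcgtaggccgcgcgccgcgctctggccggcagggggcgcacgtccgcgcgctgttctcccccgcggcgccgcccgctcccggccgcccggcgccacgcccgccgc
Txnrd1, chr10:82858956-82859205, plus strand: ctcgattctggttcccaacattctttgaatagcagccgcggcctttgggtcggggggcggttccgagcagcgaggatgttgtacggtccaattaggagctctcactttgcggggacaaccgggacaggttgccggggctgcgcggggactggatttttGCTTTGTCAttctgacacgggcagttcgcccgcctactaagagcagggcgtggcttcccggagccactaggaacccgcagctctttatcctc

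Srxn1 carried 3 matches, a number reached by 0.630% of all windows. They began 158 and 45 bases before the start and 28 bases after it (not printed), and the match at 45 bases is at the same time an AP-1 motif. Another TGAGTCA, in lower case above, began 102 bases before the start. The single match began 97 bases before the start in Slc7a11, 134 in Gclm and 92 in the second of the 3 windows of Txnrd1. Nqo1 and Sqstm1 had no match in their windows. A match is a description of letters in this window and not evidence of binding.

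The members were sparse transcripts. Over all libraries they gave 1677 UMIs for Sqstm1, 1075 for Txnrd1, 940 for Gclm, 640 for Gclc, 332 for Hmox1, 229 for Nqo1, 78 for Srxn1 and 38 for Slc7a11. A UMI of Sqstm1 was seen in 16.2% of nuclei and one of Slc7a11 in 0.419%. Per kilobase of gene span, the level of Sqstm1 was 4.19 to 6.03 CPM per kb across libraries, that of Gclm 1.08 to 1.55, that of Hmox1 0.583 to 2.98 and that of Slc7a11 at most 0.00444. Sqstm1 was thus the highest per length in every library and Slc7a11 the lowest. A UMI counts 1 molecule whatever its length, so these values depend on the gene span, 551 kb for Slc7a11, and are not expression levels.

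The summed level of the 8 members was 138 CPM (interval 128 to 149) in WT-Sham, 124 (116 to 131) in KO-Sham, 219 (209 to 230) in WT-MI and 197 (187 to 208) in KO-MI. Both MI libraries lay above both Sham libraries. The log2 ratio of MI over Sham was 0.67 (0.54 to 0.80) with WT labels and 0.68 (0.56 to 0.79) with KO labels, while the median gene stood at -0.07 and 0.04. At least 1 member UMI was found in 36.1% of WT-Sham nuclei, 27.7% of KO-Sham, 50.6% of WT-MI and 47.7% of KO-MI. With each nucleus thinned to 1000 UMIs, which removes the difference in depth, these shares became 11.9%, 11.8%, 18.8% and 17.4%, so the order of MI above Sham was kept. Only cardiomyocyte nuclei were in the matrix, so a share in a cell type that lacks these genes was not analysed here.

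**Figure D1:**
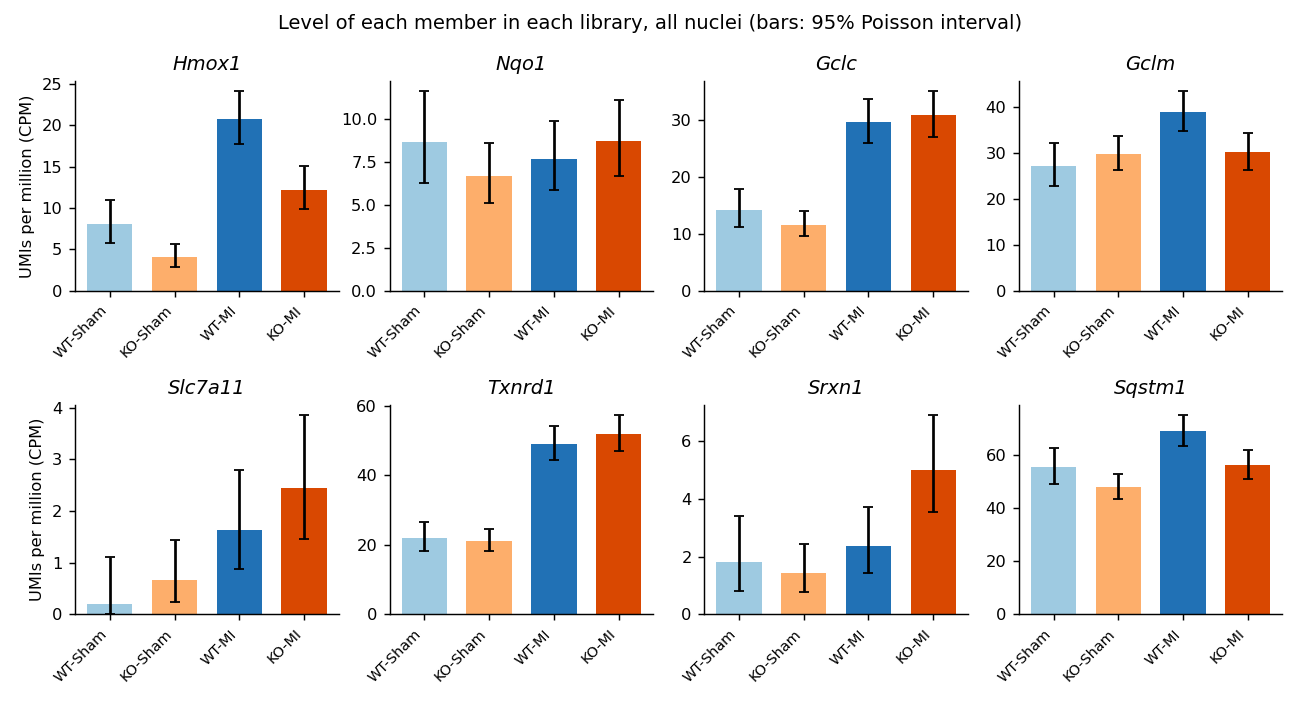
Level of each member in CPM (vertical axis, its own scale in each panel) in the 4 libraries, all nuclei together; bars carry exact 95% Poisson intervals. Gclc, Txnrd1 and Hmox1 stand higher in both MI libraries, Nqo1 lies between 6.70 and 8.63 CPM in 3 libraries and at 8.70 in KO-MI, and Hmox1 and Sqstm1 are lower in the KO library of both surgeries.

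Heme and quinone enzymes parted ways. Hmox1, which encodes heme oxygenase 1 and opens the heme ring to release iron, carbon monoxide and biliverdin, stood at 8.02 CPM (40 UMIs) in WT-Sham, 4.06 (37) in KO-Sham, 20.7 (165) in WT-MI and 12.2 (90) in KO-MI. It was high in both MI libraries, and within each surgery the library labelled KO was the lower one. Its log2 ratio of MI over Sham was 1.37 (0.86 to 1.91) with WT labels and 1.59 (1.02 to 2.18) with KO labels. Nqo1, a quinone reductase often used as a readout of NRF2, stood at 8.63 CPM (43 UMIs), 6.70 (61), 7.67 (61) and 8.70 (64) in the same order. For Nqo1 both ratios of MI over Sham had intervals that include 0, at -0.17 (-0.76 to 0.43) and 0.38 (-0.15 to 0.91).

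Glutathione synthesis depends on glutamate-cysteine ligase, whose catalytic subunit is Gclc and whose modifier subunit is Gclm, and on cystine brought in by the exchanger Slc7a11. Gclc stood at 14.2 CPM (71 UMIs) in WT-Sham, 11.6 (106) in KO-Sham, 29.7 (236) in WT-MI and 30.8 (227) in KO-MI, high in both MI libraries. Its log2 ratio of MI over Sham was 1.06 (0.67 to 1.46) with WT labels and 1.41 (1.07 to 1.75) with KO labels. Over all nuclei the modifier subunit did not keep that pattern. Gclm stood at 27.3 CPM (136 UMIs) in WT-Sham, 29.9 (272) in KO-Sham, 39.0 (310) in WT-MI and 30.2 (222) in KO-MI, so WT-MI was the one library above the rest. Its log2 ratio was 0.51 (0.22 to 0.82) with WT labels and 0.01 (-0.25 to 0.28) with KO labels, and the difference between these ratios was not tested. Counts of Gclm, Slc7a11 and Txnrd1 are uncertain where another annotated gene on the same strand overlaps them, which for Txnrd1 is the protein-coding Eid3. Slc7a11 gave 1, 6, 13 and 18 UMIs in WT-Sham, KO-Sham, WT-MI and KO-MI, with log2 ratios of MI over Sham of 3.03 (0.29 to 8.44) and 1.89 (0.50 to 3.51) that rest on these few molecules.

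Thiol repair is carried by Txnrd1, the cytosolic thioredoxin reductase, and Srxn1, the sulfiredoxin that restores overoxidized peroxiredoxins. Txnrd1 stood at 22.1 CPM (110 UMIs) in WT-Sham, 21.2 (193) in KO-Sham, 49.0 (390) in WT-MI and 51.9 (382) in KO-MI. Within a surgery the 2 libraries were close, and both MI libraries were more than 2 times the Sham libraries: the log2 ratio was 1.15 (0.84 to 1.47) with WT labels and 1.29 (1.04 to 1.55) with KO labels. Srxn1 gave 9 UMIs in WT-Sham, 13 in KO-Sham, 19 in WT-MI and 37 in KO-MI, or 1.81, 1.43, 2.39 and 5.03 CPM, and only KO-MI stood out. Its ratio of MI over Sham was 0.40 (-0.81 to 1.73) with WT labels and 1.82 (0.87 to 2.85) with KO labels. Sqstm1 encodes p62, an autophagy receptor that also binds KEAP1, and stood at 55.6 CPM (277 UMIs), 48.0 (437), 69.1 (550) and 56.1 (413) in WT-Sham, KO-Sham, WT-MI and KO-MI. Its ratios were small, 0.31 (0.10 to 0.53) with WT labels and 0.23 (0.03 to 0.42) with KO labels, and the WT-Sham and KO-MI levels were close to each other.

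By a 1.5-fold ratio, counting genes whose 2 libraries together gave at least 20 UMIs, 3 of 7 members were higher after MI with WT labels (Hmox1, Gclc and Txnrd1), against 12.5% of all genes tested, and 0 were lower, against 15.9%. Slc7a11 had too few UMIs there. With KO labels 5 of 8 were higher (those 3 with Srxn1 and Slc7a11), against 14.1%, and 0 were lower, against 12.5%. Slc7a11 reached the minimum count there through its MI library. The median member ratio was 0.51 with WT labels and 1.35 with KO labels.

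**Figure D2:**
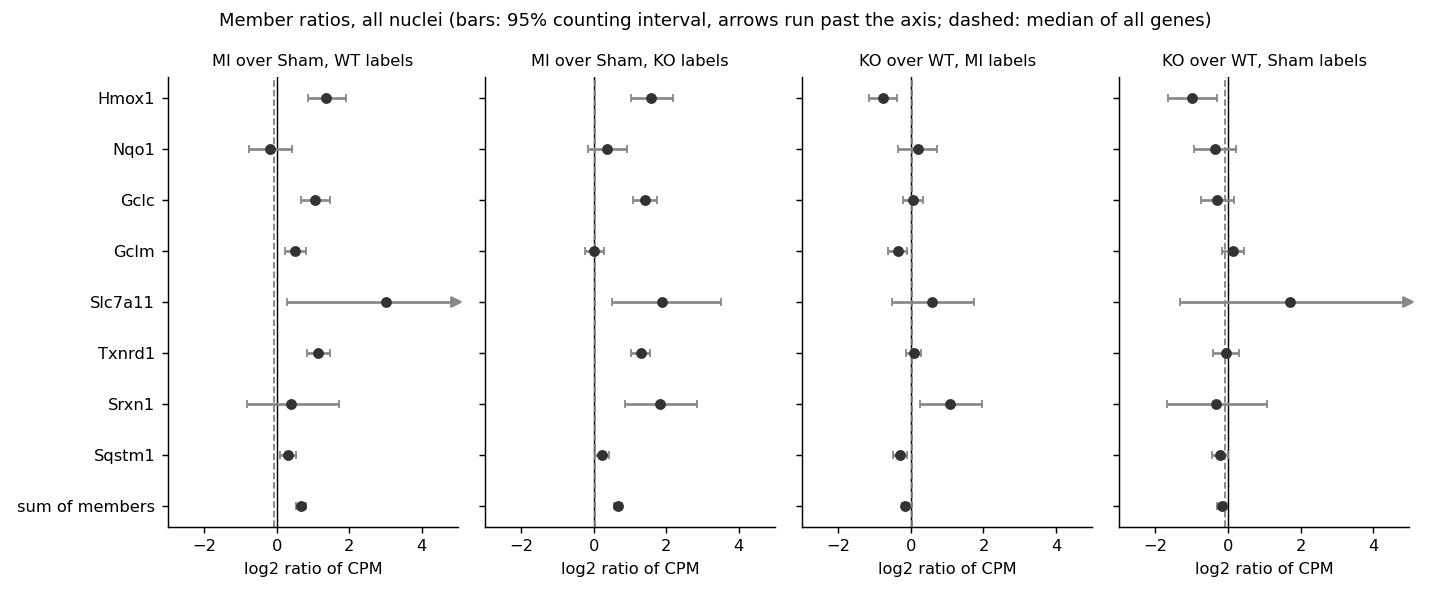
Log2 ratios of CPM for each member and for their sum (rows) in the 4 comparisons (panels), all nuclei; points are ratios, bars exact 95% counting intervals, the dashed line the median of all genes tested. Intervals of Hmox1, Gclc, Txnrd1, Slc7a11 and Sqstm1 lie above 0 in both MI over Sham panels, and in the KO over WT panels Hmox1 lies below 0 in both.

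The next comparison set the genotypes side by side within a surgery, and it shares each library with a comparison above. After MI the summed log2 ratio of KO over WT was -0.15 (-0.25 to -0.05). Hmox1 was lower in the KO library at -0.76 (-1.15 to -0.38), as were Gclm at -0.37 (-0.62 to -0.12) and Sqstm1 at -0.30 (-0.49 to -0.11). Srxn1 was higher at 1.07 (0.24 to 1.95). For Gclc, Txnrd1, Nqo1 and Slc7a11 the ratios ran from 0.06 to 0.58 with intervals that include 0. Past 1.5-fold stood 1 of 8 members in each direction, Srxn1 higher and Hmox1 lower, where 3.94% and 3.68% of all genes did, and the median member ratio of 0.07 was near the 0.03 of all genes.

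After Sham surgery the median gene was at -0.09 for KO over WT, and a scaling that centres it (trimmed mean of M values) moved every ratio by 0.10, so this comparison is given relative to the median gene. The sum of the members was at -0.06 (-0.20 to 0.08) on that scale. Hmox1 was at -0.89 (-1.57 to -0.21), and the other members tested ran from -0.27 for Nqo1 to 0.23 for Gclm with intervals that include 0. On the unshifted scale 0 of 7 members tested were higher past 1.5-fold, against 5.74% of all genes, and 1 was lower (Hmox1), against 5.61%. The Hmox1 ratio after Sham leaned on 1 CM1 nucleus of WT-Sham that held 10 of the 40 UMIs: without the richest nucleus of each library it was -0.69 (-1.44 to 0.07), unshifted.

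Hmox1 was the member lower past 1.5-fold with intervals below 0 in both genotype comparisons, which share no library. Of 12977 genes tested in both, 17 (0.131%) did the same. Hmox1 no longer met this when the richest nucleus of each library was left out, since its Sham interval then included 0. It is also a gene of macrophages, and myeloid RNA moved with it. The summed level of 13 myeloid markers was 148 CPM in WT-Sham, 111 in KO-Sham, 579 in WT-MI and 301 in KO-MI, the same order of libraries as for Hmox1. None of the 13 markers was at 0 UMIs in any library, and for KO over WT 0 of 13 were higher after MI and 2 of 13 after Sham. Most of the myeloid UMIs after MI came from the neutrophil genes S100a8 and S100a9 (3081 of 4610 in WT-MI). Hmox1 gave 7.98 UMIs per 100 UMIs of the other 11 markers in WT-Sham, 5.89 in KO-Sham, 10.8 in WT-MI and 9.42 in KO-MI.

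Nuclei were also split by whether they held a myeloid marker UMI, at nearly equal depth (medians of 3520 UMIs without and 3615 with such a UMI in WT-Sham, and 3760 and 3979.5 in WT-MI). The nuclei without one were 60.2% of WT-Sham, 75.5% of KO-Sham, 13.4% of WT-MI and 34.6% of KO-MI. The markers are sparse, so a nucleus with none of their UMIs can still hold myeloid RNA, and the split does not remove it. In nuclei with no marker UMI Hmox1 stood at 3.04 CPM (9 UMIs, 1.39 to 5.77) in WT-Sham and 2.49 (17 UMIs, 1.45 to 3.98) in KO-Sham. It stood at 25.4 CPM (26 UMIs, 16.6 to 37.3) in WT-MI and 11.5 (29 UMIs, 7.67 to 16.4) in KO-MI. In nuclei with 1 or more such UMIs the levels were 15.3, 8.80, 20.05 and 12.6 CPM in the same order. Hmox1 was thus higher in nuclei with a marker UMI in the Sham libraries, and the 2 classes had overlapping intervals in each MI library. Among nuclei without myeloid UMIs the log2 ratio of MI over Sham was 3.06 (1.93 to 4.34) with WT labels and 2.20 (1.29 to 3.16) with KO labels, that of KO over WT was -1.15 (-1.97 to -0.33) after MI, and after Sham it was -0.29 (-1.54 to 1.06), unshifted. The part of myeloid RNA in the Hmox1 differences was not tested.

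**Figure D3:**
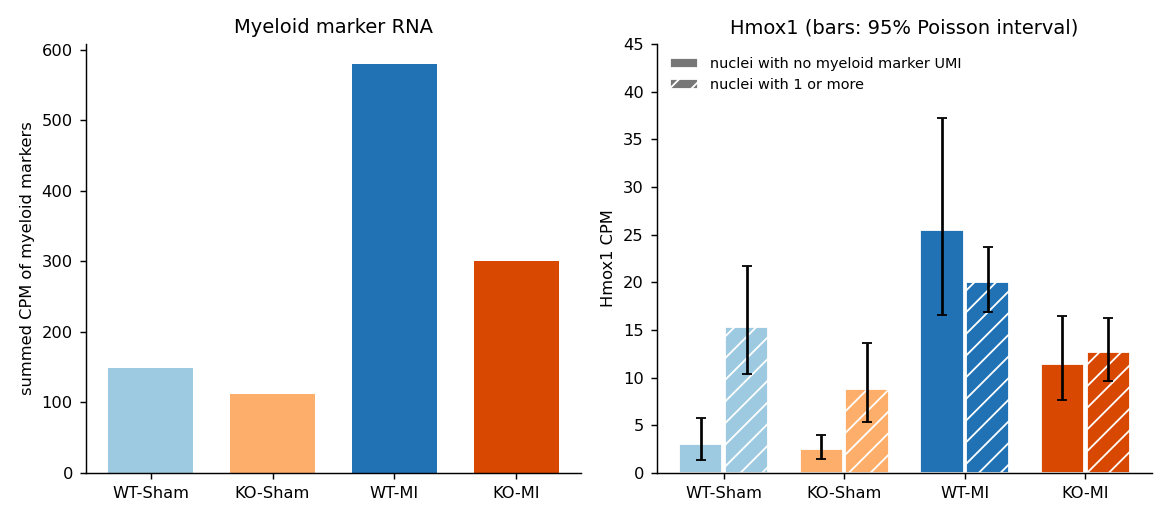
Left, summed CPM of 13 myeloid markers in the 4 libraries, all nuclei. Right, Hmox1 CPM in nuclei with no myeloid marker UMI (plain bars) and with 1 or more (hatched bars), with exact 95% Poisson intervals: plain bars are at 3.04 and 2.49 in the Sham libraries and at 25.4 and 11.5 in WT-MI and KO-MI.

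Red blood cell RNA, a source of heme genes, ran from 2123 CPM in KO-MI to 4519 in WT-MI for 5 markers, with 2318 in KO-Sham and 3296 in WT-Sham, and was therefore lower in the KO library of each surgery. Nuclei with neither myeloid nor red blood cell UMIs made up 1.19% of the total, too few for a comparison, and the part of red blood cell RNA in the Hmox1 difference was not tested.

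Populations of cardiomyocytes were taken from the final labels deposited with the nuclei: CM1 (with CM3 merged into it), CM2, CM4, linked by the study to regeneration, and CM5, linked to the response to injury. The label transferred to a nucleus from an earlier dataset was deposited too, and the labels CM2 and CM5 were largely exchanged between these columns: 743 of 1017 CM5 nuclei carried CM2 as the transferred label and 0 carried CM5, while 197 of 275 CM2 nuclei carried CM5. Which numbering matches the earlier dataset was not tested, and CM5 here means the final label. CM5 made up 6.33% of nuclei in WT-Sham, 7.03% in KO-Sham, 16.9% in WT-MI and 19.2% in KO-MI. Populations were defined on the same expression values, so differences between them are a description. The 8 members together stood at 136 CPM in CM1 and 148 in CM5 of WT-Sham, and at 122 and 139 in KO-Sham. After MI they stood at 181 in CM1 and 362 in CM5 of WT-MI, and at 154 and 361 in KO-MI. The log2 ratio of CM5 over CM1 within a library was 0.12 (-0.34 to 0.55) and 0.18 (-0.15 to 0.50) in the Sham libraries but 1.001 (0.85 to 1.15) in WT-MI and 1.23 (1.07 to 1.39) in KO-MI. CM4 was also above CM1 after MI, at 292 CPM in WT-MI and 230 in KO-MI, with log2 ratios of 0.69 (0.41 to 0.96) and 0.58 (0.23 to 0.91), and in the Sham libraries its ratios were 0.14 (-0.28 to 0.52) and 0.02 (-0.31 to 0.33). In CM5, 28.3% of WT-MI nuclei and 24.2% of KO-MI nuclei held UMIs of 2 or more members, against 13.6% and 11.1% in CM1. With nuclei thinned to 1000 UMIs the shares were 5.31% and 4.79% in CM5, and 1.27% and 0.917% in CM1.

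Txnrd1 stood at 98.8 CPM in CM5 and 35.2 in CM1 of WT-MI, and at 108 and 37.0 in KO-MI, for log2 ratios of 1.49 (1.17 to 1.80) and 1.54 (1.22 to 1.85). In the Sham libraries it stood at 27.7 and 31.5 CPM in CM5, from 9 and 20 UMIs, with both ratios over CM1 including 0. Sqstm1 stood at 119 CPM in CM5 and 57.8 in CM1 of WT-MI, and at 115 and 43.8 in KO-MI, with ratios of 1.04 (0.77 to 1.31) and 1.40 (1.10 to 1.69). For Sqstm1 the level in CM1 was no higher after MI than after Sham (57.3 CPM in WT-Sham and 49.6 in KO-Sham): its MI over Sham ratio in CM1 was 0.01 (-0.23 to 0.26) with WT labels and -0.18 (-0.42 to 0.06) with KO labels, and in CM5 it was 1.11 (0.40 to 1.89) and 0.99 (0.46 to 1.54). One CM5 nucleus of WT-MI held 14 Sqstm1 UMIs and one held 10 of Txnrd1.

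Gclc was at 52.1 CPM in CM5 and 24.3 in CM1 of WT-MI, and at 45.6 and 25.6 in KO-MI, with log2 ratios of CM5 over CM1 of 1.10 (0.68 to 1.51) and 0.83 (0.38 to 1.27). For Hmox1 these ratios were 0.97 (0.44 to 1.49) and 1.002 (0.29 to 1.69), and for Gclm 0.45 (0.04 to 0.85) and 0.99 (0.54 to 1.43). A single CM5 nucleus of WT-MI held 9 of the 47 Hmox1 UMIs there. Nqo1 again lacked the pattern, at -0.21 (-1.30 to 0.75) and -0.08 (-1.13 to 0.86). Srxn1 differed between the MI libraries: CM5 held 3 of its 19 UMIs in WT-MI and 18 of 37 in KO-MI, or 2.03 and 12.8 CPM, while CM1 held 14 and 16 UMIs. Its ratio of CM5 over CM1 was -0.25 (-2.69 to 1.59) in WT-MI and 2.09 (1.04 to 3.16) in KO-MI. In CM5 the log2 ratio of Srxn1 for KO over WT after MI was 2.66 (0.88 to 5.06), and in CM1 it was 0.32 (-0.81 to 1.46). The 18 UMIs came from 15 nuclei, of which none held more than 3.

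**Figure D4:**
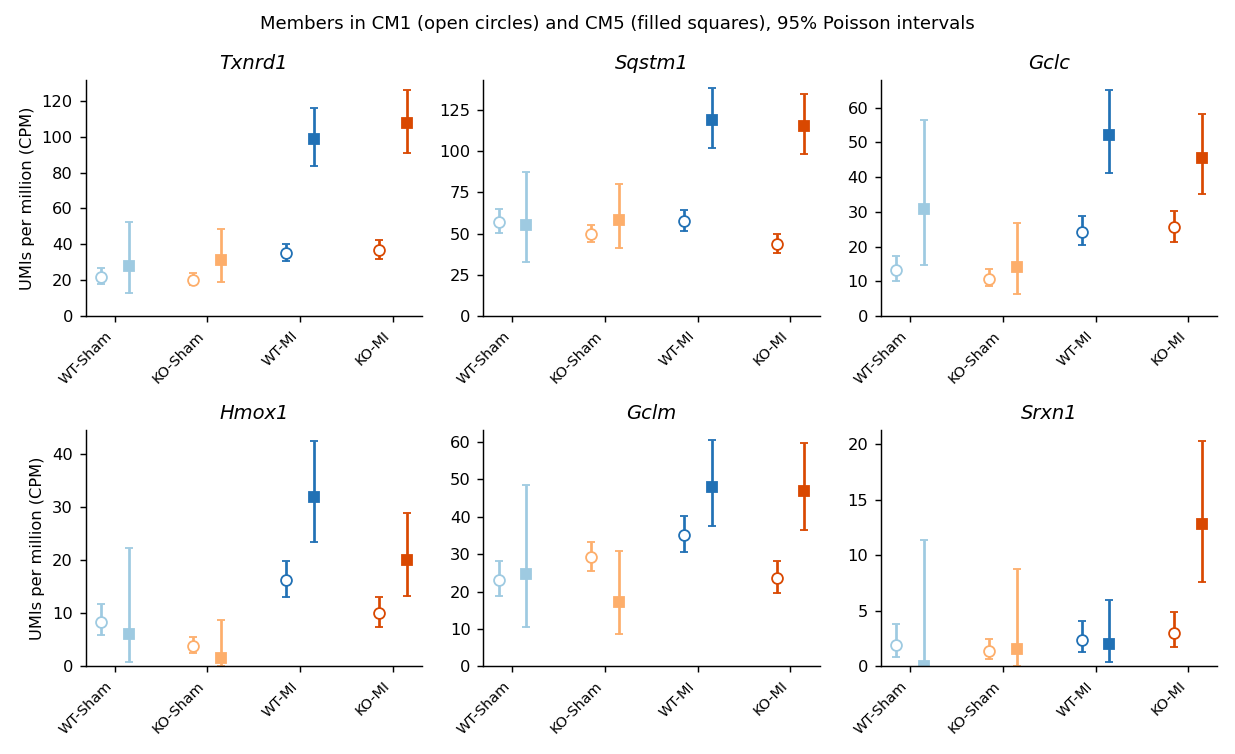
CPM of 6 members in CM1 (open circles) and CM5 (filled squares) of each library, with exact 95% Poisson intervals and a separate vertical scale in each panel. CM5 lies above CM1 in both MI libraries for Txnrd1, Sqstm1, Gclc, Hmox1 and Gclm, and for Srxn1 it does so in KO-MI, at 12.8 CPM, and not in WT-MI.

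Within CM1 alone, 4 of 7 members were past 1.5-fold higher after MI with WT labels (Hmox1, Gclc, Gclm and Txnrd1), against 10.4% of all genes, and 4 of 7 with KO labels (Hmox1, Gclc, Txnrd1 and Srxn1), against 12.1%. None was past 1.5-fold lower, where 14.6% and 12.8% of all genes were. The Srxn1 ratio with KO labels had an interval that includes 0, at 1.14 (-0.09 to 2.44). The CM1 sums gave 0.41 (0.26 to 0.56) and 0.34 (0.20 to 0.48), so the higher level after MI was present without CM5 at a smaller size. Gclm with KO labels, near 0 over all nuclei, was at -0.30 (-0.63 to 0.02) in CM1 and 1.44 (0.51 to 2.51) in CM5, the latter from 66 and 11 UMIs. Within CM5 the 5 members with enough UMIs were all past 1.5-fold higher with WT labels (22.7% of all genes, with 24.3% lower) and with KO labels (25.5%, with 18.9% lower), reaching the minimum count mainly through the MI libraries, which hold 339 and 355 CM5 nuclei against 89 and 234. Intervals lay above 0 for 3 of the 5 with WT labels (11.8% of all genes), those of Gclc and Gclm including 0. With KO labels they did for all 5 (18.4%). Between genotypes after MI the sum of the members in CM5 did not differ beyond counting error, with a log2 ratio of -0.0039 (-0.18 to 0.17), and in CM1 it was -0.23 (-0.36 to -0.10). In CM1 the ratio was -0.70 (-1.22 to -0.20) for Hmox1, -0.57 (-0.90 to -0.24) for Gclm and -0.40 (-0.65 to -0.15) for Sqstm1. Past 1.5-fold in CM1 stood 0 of 7 members tested higher (4.54% of all genes) and 1 lower, Hmox1 (3.99%). In CM5 it was 1 of 7 higher, Srxn1 (9.7%), and 1 lower, Hmox1 at -0.67 (-1.40 to 0.03), against 4.82%. Srxn1 reached the minimum count there through KO-MI, with 18 UMIs against 3 in WT-MI, so its call is a description.

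CM4 held 118 to 351 nuclei per library, with medians of 1715.5 to 2394 UMIs. In CM4 after MI, Hmox1 stood at 52.2 CPM (22 UMIs) with WT labels and 11.6 (4 UMIs) with KO labels, a log2 ratio of -2.17 (-4.16 to -0.61). Sqstm1 stood at 78.3 CPM (33 UMIs) and 34.9 (12 UMIs), a ratio of -1.17 (-2.25 to -0.17). Both appear among the genes the study selected as lower in CM4 of these libraries, so they are no independent evidence, and these 2 of 5 members tested compare with 19.3% of all genes lower and 12.3% higher in CM4. Hmox1 reached the minimum count there through WT-MI, and Nqo1, Slc7a11 and Srxn1 had too few UMIs, so this share is a description. Myeloid markers in CM4 stood at 1021 CPM in WT-MI and 530 in KO-MI, and their part in the Hmox1 value was not tested. After Sham the CM4 sums held 2 and 7 Hmox1 UMIs for WT and KO labels. Gclm was the member whose ratio of CM4 over CM1 had an interval above 0 in all 4 libraries, with log2 values of 1.45 (0.75 to 2.10) in WT-Sham, 0.59 (0.0024 to 1.13) in KO-Sham, 0.75 (0.09 to 1.36) in WT-MI and 1.56 (0.87 to 2.20) in KO-MI. CM2, at 1.92% to 3.73% of nuclei, gave 16 to 53 UMIs of all members per library, or 131 to 162 CPM.

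Among the regulators of the element, Nfe2l2 stood at 70.6 CPM in WT-Sham, 58.5 in KO-Sham, 80.1 in WT-MI and 74.2 in KO-MI, and its log2 ratio of MI over Sham was 0.18 (-0.01 to 0.37) with WT labels and 0.34 (0.17 to 0.52) with KO labels. The inhibitor Keap1 (24.6 to 29.5 CPM) and the repressor Bach1 (19.9 to 27.9 CPM) had MI over Sham ratios with intervals that include 0. For Nfe2l1 the ratio was -0.39 (-0.61 to -0.17) with WT labels and 0.13 (-0.07 to 0.33) with KO labels. The small MAF genes were higher: 3 of 8 regulators passed 1.5-fold after MI with either genotype label, against 12.5% of all genes with WT labels and 14.1% with KO labels, and these were Mafg, Mafk and Maff, named after their values were seen. Mafg, which shares its locus with Sirt7 on the same strand, stood at 24.7 CPM in WT-Sham, 16.6 in KO-Sham, 48.6 in WT-MI and 37.5 in KO-MI. None of the 8 regulators was past 1.5-fold between genotypes after either surgery, over all nuclei. Mafg was still lower in the KO library, at -0.38 (-0.60 to -0.15) after MI and -0.57 (-0.93 to -0.22) after Sham, unshifted. Within CM1 it was past 1.5-fold lower in both, at -0.69 (-0.999 to -0.39) and -0.82 (-1.23 to -0.42). In CM5 its ratios were 0.17 (-0.21 to 0.56) and 0.62 (-0.78 to 2.24), with intervals that include 0.

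A wider list of 39 ARE targets, 37 of them in the matrix, gave a different split. With WT labels 9 of 30 tested were past 1.5-fold higher after MI (12.5% of all genes) and 3 lower (15.9%). With KO labels 6 of 31 were higher (14.1% of all genes) and 4 lower (12.5%), near the background. Their medians were 0.11 with WT labels and 0.02 with KO labels, against -0.07 and 0.04 for all genes. The most abundant were ferritin genes: Fth1, the iron-oxidizing heavy chain, stood at 692 CPM in WT-Sham, 750 in KO-Sham, 539 in WT-MI and 515 in KO-MI and was lower after MI, at -0.36 (-0.42 to -0.29) with WT labels and -0.54 (-0.60 to -0.48) with KO labels. For Ftl1, the light chain, the ratios were -0.06 and 0.02, with intervals that include 0. Prdx1 and Prdx6, peroxiredoxins, Txn1, thioredoxin, and Tkt, a transketolase of the pentose phosphate pathway, ran from -0.28 to 0.33. Highest was Abcc1, an exporter of glutathione conjugates named after its value was seen, at 11.03 and 10.5 CPM in WT-Sham and KO-Sham and 41.6 and 33.3 in WT-MI and KO-MI.

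Between genotypes 3 of 30 targets of that list were past 1.5-fold lower after MI (3.68% of all genes) and 0 higher (3.94%). Without the 1.5-fold limit, 10 of 30 had intervals below 0 after MI (6.87% of all genes) and 0 had intervals above 0 (9.90%). Their median after MI was -0.13, against 0.03 for all genes. After Sham 2 were past 1.5-fold lower (5.61%) and 2 higher (5.74%), about the background. There 5 of 30 had intervals below 0 (19.4% of all genes) and 6 had intervals above 0 (9.36%), unshifted, so the lean after MI was not repeated. The one past 1.5-fold lower in both with intervals below 0 was Me1, the cytosolic malic enzyme that supplies NADPH. It stood at 27.5 CPM (137 UMIs) in WT-Sham, 17.1 (156) in KO-Sham, 37.3 (297) in WT-MI and 22.4 (165) in KO-MI, with log2 ratios of -0.74 (-1.02 to -0.46) after MI and -0.68 (-1.02 to -0.34) after Sham, or -0.59 relative to the median gene. Hmox1 and Me1 were thus the genes of these lists past 1.5-fold lower, with intervals below 0, in the KO library of both surgeries, over all nuclei. For Hmox1 the Sham interval included 0 once the richest nucleus of each library was left out.

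**Figure D5:**
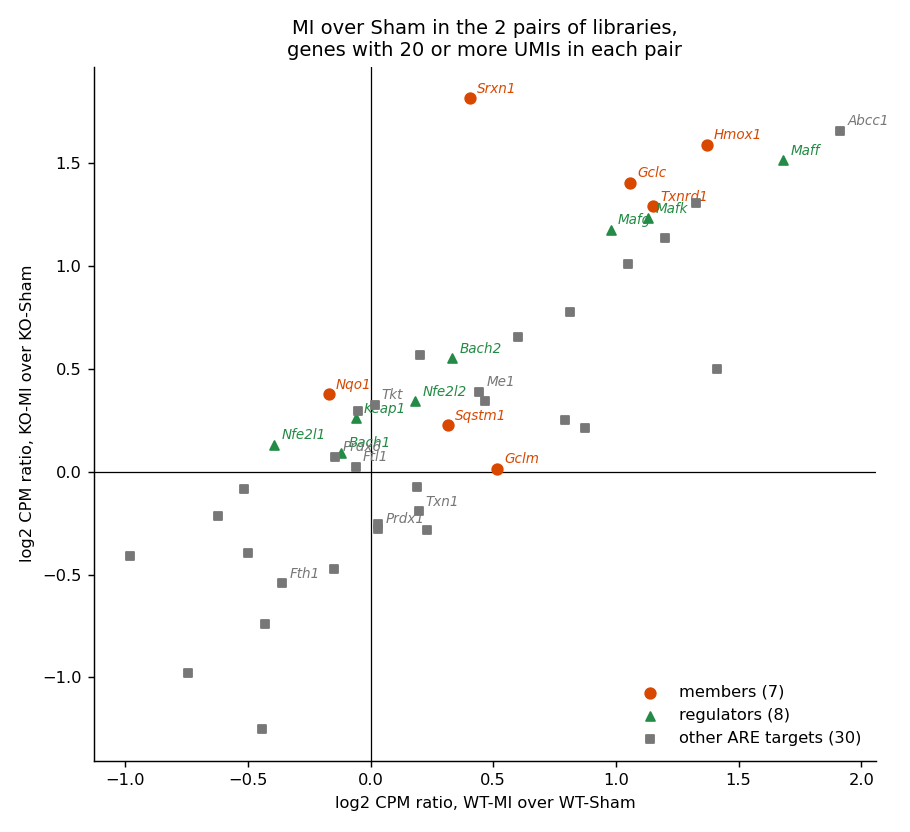
Log2 CPM ratio of MI over Sham with WT labels (horizontal) against KO labels (vertical), all nuclei, for members (circles), regulators (triangles) and other ARE targets (squares) with 20 or more UMIs in each pair of libraries. Hmox1, Gclc, Txnrd1 and the small MAF genes lie at the upper right near Abcc1, Srxn1 lies high on the vertical axis alone, and Fth1 lies below 0 on both axes.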

How the data were processed

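The authors deposited raw UMI counts per gene and nucleus, made with Cell Ranger (version not given in the sources used here) on the mm10/GRCm38 pre-mRNA reference, so intronic reads were counted. Before deposit, doublets called by Scrublet and nuclei outside 200 to 2500 genes had been removed and cardiomyocyte clusters kept with Seurat 3. No doublet caller was run here. Deposited with each nucleus were its library, its final and transferred population labels, its percent of mitochondrial UMIs and its label transfer score, a fraction from 0 to 1. A further 9 deposited columns were not used. The labels and the methods name different versions of the 10x kit.

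UMIs were summed per library and population and divided by the sum of all UMIs (CPM). Intervals were exact: Poisson for CPM, Clopper-Pearson for shares, conditional binomial for ratios. Ratios across genes used a minimum of 20 UMIs over both sums, and no ratio was printed against 0 UMIs. Thinning to 1000 UMIs left out 7 nuclei. Overlaps came from an annotation of GRCm38, promoters from RefSeq. Python 3.11.15, NumPy 2.4.6, SciPy 1.17.1, pandas 2.3.3, R 4.3.3 and edgeR 4.0.16 (TMM only) were used, and the intervals were tested on simulated data.

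Genes named are the 8 members, 4 of 8 regulators, the 6 other targets with the most UMIs, any target past 1.5-fold the same way in both genotype comparisons, markers, and for likeness the 3 closest genes; exceptions are stated. The members and lists were chosen with earlier results of these data known.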

Additional observations from a re-analysis of the deposited data

How the results depend on the processing

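No paired analysis was possible because each group holds 1 library. Of the 32 member ratios, 17 had an interval excluding 0, and 16 of these kept their direction under every alternative that gave a value. The exception was Sqstm1 for MI over Sham with KO labels, which was -0.18 in CM1 nuclei only. The sums kept their direction under all alternatives. Those for MI over Sham were 0.41 (WT labels) and 0.34 (KO labels) in CM1 nuclei only, 1.29 and 1.38 in CM5 nuclei only, and 0.87 and 0.90 without Sqstm1, the member with the most UMIs. For KO over WT, the sum after MI was -0.0039 in CM5 nuclei only, and the sum after Sham was -0.55 in nuclei with neither myeloid nor red blood cell UMIs, from 29 and 2 UMIs. That last selection gave no value for the other sums, since too few nuclei remained. Alternatives limited to CM5, to nuclei without myeloid UMIs or without the richest nucleus were added after seeing the data. The share of genes past 1.5-fold was 7.62% for KO over WT after MI, 1.85% with a minimum of 100 UMIs and 18.1% with 4. After Sham it was 11.4%, 4.97% and 21.3%. Why the values moved was not tested. Depth limits Srxn1 and Slc7a11 most, with 78 and 38 UMIs in all.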

Other observations

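Patterns of members with 200 or more UMIs were compared with those of 4594 genes over the 16 sums of a library and population, as Pearson correlation of log2(CPM + 10). The sums share libraries, depth and population make-up, so the values are a description. Txnrd1 had the closest neighbours, Ier3, Tgm2 and Azin1, with r of 0.94, 0.93 and 0.93. Those of Sqstm1 were Ero1l (0.90), Map1b (0.88) and Arid5b (0.87), and those of Gclc were Ifrd1 (0.89), Pfkp (0.89) and Fbxw11 (0.87). Hmox1 was nearest to Ddx39b, Rrbp1 and Copa, all at 0.85. Gclm was nearest to G3bp2 (0.85), Tmed2 (0.84) and Eif3a (0.84), and Nqo1 to Parl, Snx30 and Atpaf1, all at 0.81. No gene was shared between these sets of neighbours.

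One CM5 nucleus of WT-MI held 34 UMIs of the 8 members together, and the richest nucleus of KO-MI held 16, against 11 in WT-Sham and 5 in KO-Sham. Without the richest nucleus of each library the summed log2 ratio of MI over Sham was 0.66 with WT labels and 0.67 with KO labels.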
